A study of Mus musculus with 4 samples.

Results

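Collagen chain genes encode the alpha chains from which collagen trimers are built. They were taken as the rows whose gene symbol consists of Col, a type number, the letter a and a chain number, with a value above 0 in at least 1 of the 4 lung libraries. The rule found 43 genes of the 23282 rows measured, of which 18254 had a value above 0. A further matching symbol, Col22a1, was at 0 in all 4 libraries. By collagen class, 11 members were fibrillar, 9 belonged to the basement membrane class (types IV, VII, XV and XVIII) and 23 were of other classes.

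The libraries came from lungs of male CDF1 mice, labelled as postnatal day 28, with 10 mice per group in the study. Resting mice without tumor formed the normal control, E(-)T(-), and exercised mice without tumor were called normal exercise, E(+)T(-). Resting mice with tumor formed the cancer control, E(-)T(+), and exercised mice with tumor were called cancer exercise, E(+)T(+). Exercise (E) was high-intensity aerobic running on a treadmill. Tumor (T) was induced by tail vein injection of CT26, a colorectal carcinoma cell line of mouse origin, which the mice without tumor did not receive. The labelled age equals the age at which the study bought the mice, so the lungs, taken at the end of the experiment, may have come from older animals. There was 1 library per group. The study used calf muscle of a representative mouse per group and describes the lung work as similar, without stating for lung whether a library held 1 mouse or a pool. No difference below therefore has a replicate check, and the intervals given cover counting error only.

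Collagen chains fold as trimers, some made of identical chains and some of different ones, so that chains of 1 type are often made together. Types I, III and V form the banded fibrils that give lung its tensile strength. Type IV forms the sheet-like network of the basement membranes under alveolar epithelium and endothelium, and types XV and XVIII sit at the border of basement membranes. Type VI forms beaded filaments around cells. Types XII, XIV, XVI and XIX attach to fibrils or stand between them and the surrounding matrix, type VIII forms short-chain networks, and types XIII, XVII and XXIII span the cell membrane. Fibroblasts are the main source of fibrillar collagen in lung.

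Reads assigned to genes numbered between 9354490 and 13367882 per library. The kit primed at the poly(A) tail, so a read marks a transcript end and transcript length has little weight when genes are compared. The E(-)T(+) library stood apart from the other 3. Hemoglobin genes took 1.43% of its reads, against 14.2% to 31.4% in the others. Some hemoglobin rows had near-equal reads, such as Hbb-bs and Hbb-b1 with 689691 and 680667 in E(+)T(+). The same reads may therefore count in more than 1 row, which would raise these shares and the totals, and this was not tested. Relative to E(-)T(-), the E(-)T(+) library was lower by 2-fold or more in 8 of 8 alveolar epithelial markers and in 8 of 8 endothelial markers, against 25.7% of all genes. Of 7 smooth muscle and pericyte markers, 6 were lower and 1 was higher. The 6 cell division markers were all higher, against 20.6% of all genes. Lung epithelial markers were present in all 4 libraries, with summed levels of 217292, 264548, 31266 and 174302 normalized counts in the order E(-)T(-), E(+)T(-), E(-)T(+), E(+)T(+), which is kept throughout. In bulk RNA, fewer cells of a type and less RNA per cell cannot be told apart. The paper states that cancer spread through the body after the injection, with the lungs among the sites. Whether the piece of lung in a tumor library held tumor tissue is not given in the sources used here. Every tumor difference below is therefore one between pieces labelled as lung, in which RNA of tumor and of lung cells cannot be told apart. A second measured fact concerns E(+)T(-). There were 9 genes that reached 500 normalized counts in the cancer control but had no read in the normal control. All 9 had reads in E(+)T(-), from 0.642% to 2.18% of the cancer control level. The comparison of E(+)T(-) with E(-)T(-) and that of E(+)T(+) with E(+)T(-) do not use the values of the E(-)T(+) library, but both use E(+)T(-), and the authors' adjustment and the filter ran over all 4 libraries.

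Of the 43 members, 34 had a mean of at least 4 normalized counts over the 4 libraries, the filter that 15164 genes passed. A gene could pass through a single library in which it was high. A member was counted as higher or lower when the 2 libraries differed by 2-fold or more on the log2(normalized count + 1) scale, and such a fold understates the change of low genes. With tumor in resting mice, E(-)T(+) over E(-)T(-), 11 of the 34 members were higher and 11 lower, against 20.6% higher and 25.7% lower among all genes tested. The median difference of the 34 was -0.21 log2, against -0.034 for all genes, with a positive median in the fibrillar class and a negative one in the other classes. One of the 11 higher, Col10a1, had 0 and 2 reads, so both libraries were at or under the floor of 3 reads, and the median with such members at 0 was -0.038. With tumor in exercised mice, E(+)T(+) over E(+)T(-), 6 members were higher and 2 lower, against 14.9% and 13% of all genes. All of those higher apart from Col1a1 had at most 17 reads in any library, and at a mean of at least 50 normalized counts 1 member was higher (Col1a1) and 2 were lower (Col4a3 and Col4a5). The 2 tumor comparisons share no library. Of the members past the limit, 5 were on the same side in both, 22.7% of the 22 in resting mice and 62.5% of the 8 in exercised mice, against 31.6% and 52.5% for all genes tested. One of the 5 was Col10a1, at or under the floor in both resting libraries, so both shares of the members would be lower without it. Another was Col6a6, with at most 7 reads and intervals that include 0 in both comparisons (-0.22 to 5.48 and -0.55 to 5.27 log2).

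**Figure D1:**
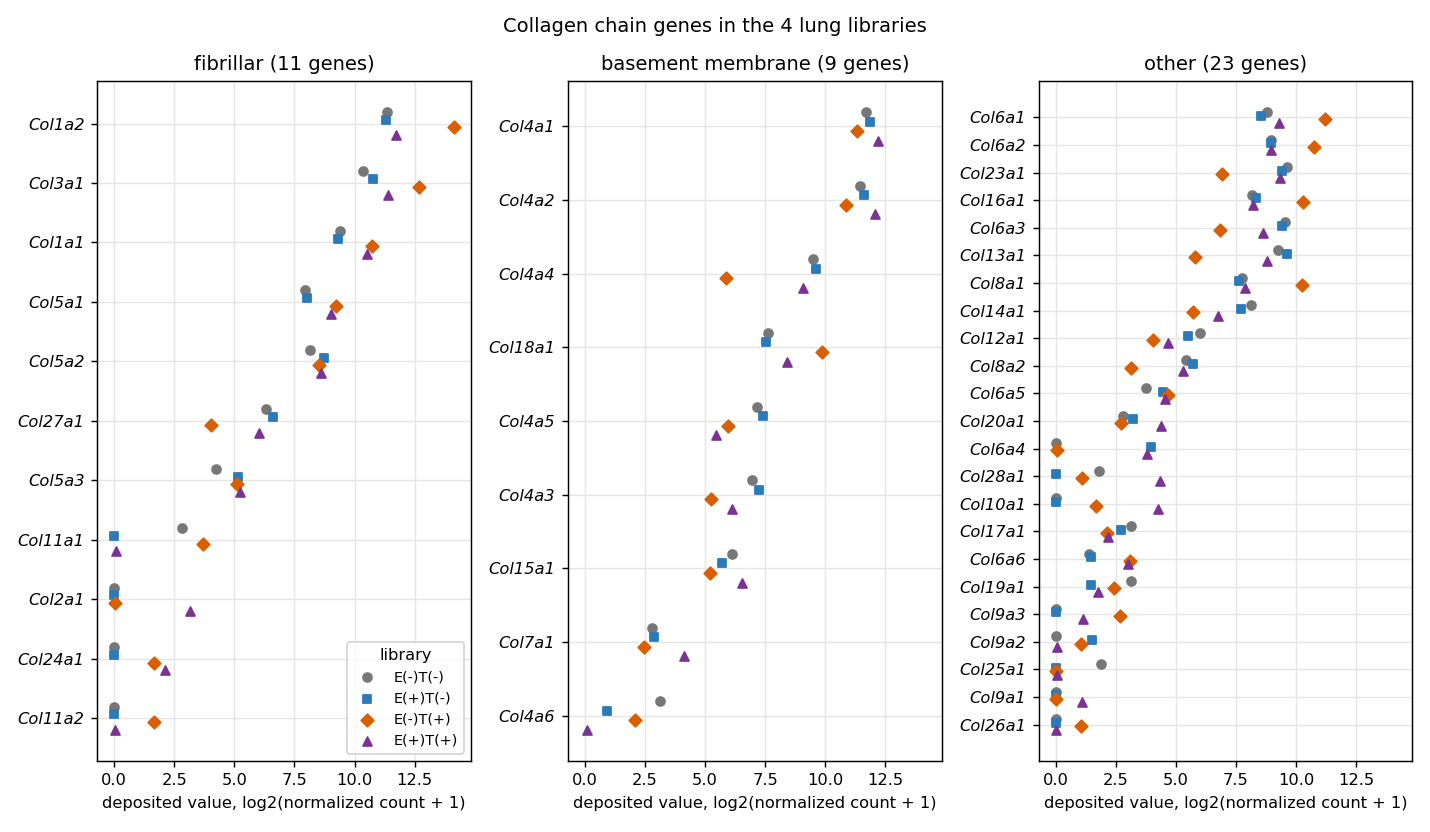
Deposited value, log2(normalized count + 1), on the horizontal axis for each of the 43 collagen chain genes, in 3 panels by class and sorted by mean level. Each point is 1 library, with no replicates. In the fibrillar panel E(-)T(+) is highest for Col1a2, Col3a1, Col1a1 and Col5a1, and in the basement membrane panel it is lowest for 6 of the 8 members that pass the filter.

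Of the abundant fibrillar chains, Col1a2, Col3a1, Col1a1 and Col5a1 were higher in both tumor libraries than in both libraries without tumor, and Col5a2 was not. For Col1a2 this order did not hold under scaling by library totals alone, at 237, 216, 1751 and 219.6 CPM (reads scaled to the same library total). Col1a2, the alpha 2 chain of type I collagen (chr6:4504814-4541544), stood at 2622, 2538, 17953 and 3431 normalized counts. E(-)T(+) was the single high library, and the other 3 lay between 2538 and 3431. Its tumor difference was 2.78 log2 without exercise (95% interval 2.72 to 2.83), a 6.85-fold excess, and 0.43 with exercise (0.36 to 0.51). Col1a1, the alpha 1 chain of the same trimer (chr11:94936224-94953042), stood at 663, 640, 1713 and 1448 normalized counts. Both tumor libraries were above both libraries without tumor, by 2.58-fold in resting mice and by 2.26-fold in exercised mice. The latter log2 difference was 1.18 (1.04 to 1.31), and it was 0.76 under scaling by library totals alone.

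Col3a1, which forms the homotrimer of type III collagen (chr1:45311538-45349706), stood at 1301, 1767, 6539 and 2692 normalized counts. Its order was the same as that of type I in the tumor libraries, with E(-)T(+) highest and E(+)T(+) next. The tumor difference was 2.33 log2 (2.25 to 2.41) without exercise and 0.61 (0.52 to 0.69) with it. Of the type V chains, which set fibril diameter, Col5a1 stood at 243, 262, 600 and 520 normalized counts and Col5a2 at 286, 424, 365 and 385. Col5a1 was 2.47-fold higher with tumor in resting mice and 1.98-fold higher in exercised mice, while Col5a2 was within 1.5-fold in all 4 comparisons. The difference of Col5a1 in exercised mice, 0.99 log2, was 1.04 and past the limit once E(+)T(-) was reduced by 1.47% of the E(-)T(+) level. Col5a3 was low, at 17.8, 34.9, 34.0 and 36.2 normalized counts, with E(-)T(-) below the other 3 libraries. Over the 8 fibrillar members that passed the filter, 4 were higher and 1 lower with tumor in resting mice, with a median of 1.10 log2, against the 20.6% higher and 25.7% lower of all genes. The 1 lower was Col27a1, with 79.1, 97.4, 15.4 and 64.3 normalized counts. Col11a1, a cartilage fibril chain, had 7, 0, 11 and 0 reads. With library totals alone Col5a3, at 1.002 log2, and Col11a1, at 1.02, were also past the limit with tumor in resting mice. That setting gave 6 higher and 1 lower fibrillar members, and 13 higher and 10 lower of all 34.

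Some marker lists were also highest in E(-)T(+). The 6 cell division markers had a summed level of 282, 615, 8623 and 3021 normalized counts, with 6 of 6 higher in E(-)T(+) than in E(-)T(-). In E(+)T(-) over E(-)T(-) 4 of the 6 were higher, against 5.28% of all genes. Of these, Top2a, Birc5 and Cdk1 differed by 1.11 to 1.23 log2 and stood at 1692 to 2707 normalized counts in E(-)T(+). Bub1 went from 0 to 18 reads. Removal from E(+)T(-) of a share of the E(-)T(+) level was not applied to these markers, so its part in this count was not tested. The 4 mesothelial markers summed to 743, 806, 3055 and 983, but Msln alone, at 527, 448, 2950 and 805, carried that sum. Of the mesothelial list 1 was higher and 2 were lower in E(-)T(+) than in E(-)T(-), Upk3b at -2.38 log2 and Lrrn4 at -2.23. Among all genes 20.6% were higher and 25.7% lower in that comparison, to which the counts of the next lists also belong. The 5 adipocyte markers summed to 2912, 1117, 6376 and 699, carried by Fabp4, and of the 4 that passed the filter 1 was higher and 3 were lower in E(-)T(+) than in E(-)T(-). The summed level of the 9 fibroblast markers was 42078, 41268, 12486 and 29784, with 6 of 9 lower and 1 higher in E(-)T(+) than in E(-)T(-). The fall of that sum in E(-)T(+) was carried by Inmt, at 32744, 32093, 1379 and 20780. The 1 higher was Dcn, a proteoglycan that binds collagen fibrils, at 3758, 3572, 9013 and 5633. The 7 smooth muscle and pericyte markers had 6 lower and 1 higher in E(-)T(+) than in E(-)T(-), with a median of -2.45 log2. Of these lists Lep, an adipocyte marker, was at 0 in E(-)T(+), and no other marker was. The part of these cell types in the level of the fibrillar chains was not tested.

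Of the 5 type IV chains that passed the filter, 4 were lowest in E(-)T(+), and Col4a5 was lowest in E(+)T(+). The 2 chains of the common network, Col4a1 and Col4a2, were the most abundant members in the other 3 libraries. Col4a1 (chr8:11198423-11312826) stood at 3324, 3683, 2540 and 4630 normalized counts, and Col4a2 (chr8:11312805-11449287) at 2816, 3125, 1877 and 4228. Both were lowest in E(-)T(+) and highest in E(+)T(+), although with totals alone Col4a1 was highest in E(+)T(-), at 300.4, 314, 248 and 296 CPM. Both stayed within 2-fold with tumor, at -0.39 log2 (-0.46 to -0.31) and -0.58 (-0.67 to -0.50) in resting mice. The annotation places the starts of these 2 genes 21 bases apart on opposite strands. The chains of the second network, found in alveolar basement membrane, differed by more. Col4a4 (chr1:82448423-82586849) stood at 717, 785, 58.1 and 530 normalized counts, so that E(-)T(+) was 12.1-fold below E(-)T(-). Its neighbour Col4a3, which starts 72 bases away on the other strand, stood at 123, 152, 37.3 and 69.0. The reads of Col4a3 may include some of C430014B12Rik, which overlaps its 3′ end on the opposite strand, since the use of strand in counting is not given in the sources used here.

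Col4a5, another chain of that network (chrX:141475385-141689234), stood at 142, 167, 60.3 and 43.4 normalized counts. It was lowest in E(+)T(+), 3.79-fold below E(+)T(-) with a log2 difference of -1.92 (-2.50 to -1.43). Both tumor libraries were therefore below both libraries without tumor, as they were for Col4a3. Col18a1, whose C-terminal fragment is endostatin, went the other way, at 194, 184, 932 and 337 normalized counts. It was 4.77-fold higher with tumor in resting mice and 1.83-fold higher in exercised mice. Over the 8 basement membrane members that passed the filter, 1 was higher and 3 lower with tumor in resting mice, with a median of -0.74 log2, a count near the 20.6% higher and 25.7% lower of all genes. In exercised mice 1 of the 8 was higher and 2 were lower, against 14.9% and 13% of all genes. The 18 members of the other classes counted 6 higher and 7 lower in resting mice, and 4 higher and 0 lower in exercised mice. The summed level of the 8 endothelial markers, cells that rest on type IV collagen, was 20436, 20772, 2377 and 18078 normalized counts. That of the 7 smooth muscle and pericyte markers was 3750, 4337, 800 and 3593. The share of these differences in the type IV levels was not tested.

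**Figure D2:**
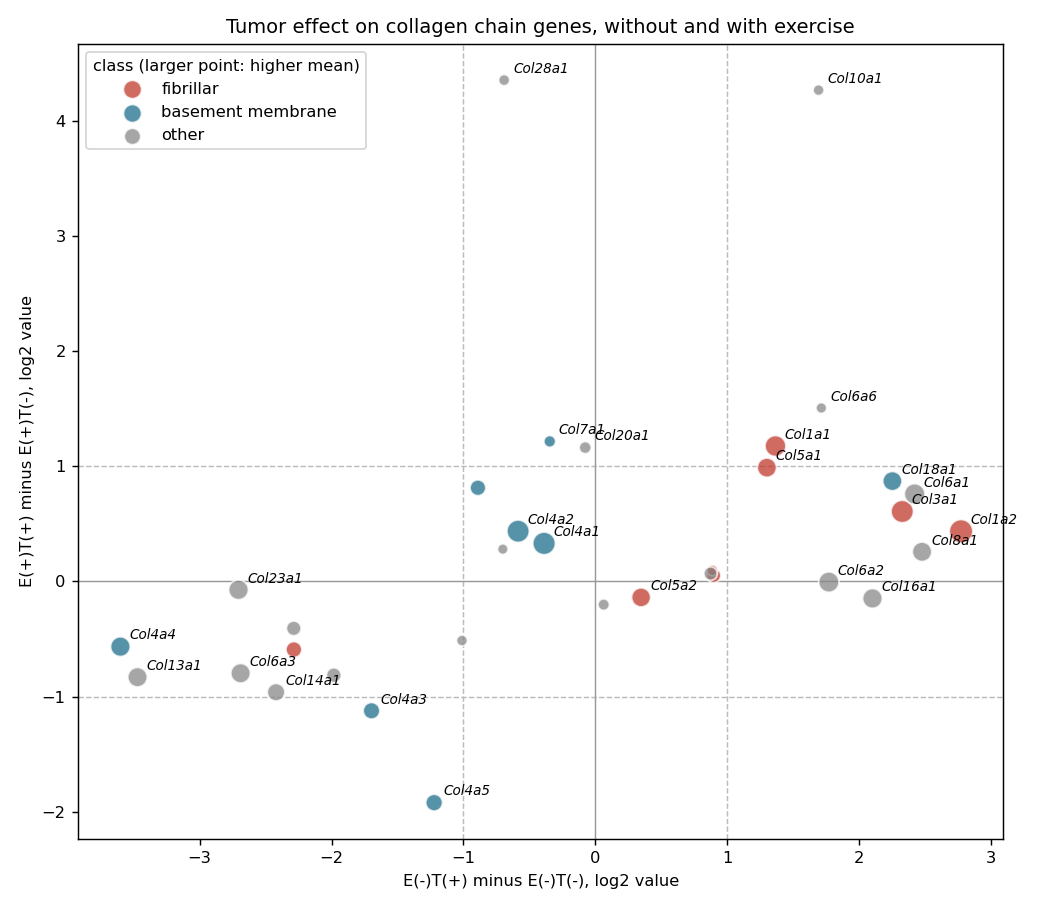
Log2 difference between the tumor and no-tumor libraries in resting mice (horizontal axis) and in exercised mice (vertical axis) for the 34 members that pass the filter, coloured by class, with dashed lines at 2-fold and larger points for a higher mean. Col1a1 and the low members Col10a1 and Col6a6 lie above 2-fold on both axes, and Col4a5 and Col4a3 lie past it on the lower side of both. The other members past 2-fold on the horizontal axis lie within 2-fold on the vertical axis.

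The chains of type VI collagen, whose common trimer holds an alpha 1, an alpha 2 and an alpha 3 chain, did not move together. Col6a1 (chr10:76708792-76726168) stood at 438, 369, 2355 and 625 normalized counts. Col6a2 (chr10:76595762-76623630) stood at 499, 493, 1708 and 491. Both were highest in E(-)T(+), by 5.36-fold and 3.41-fold over E(-)T(-). Col6a3 (chr1:90765923-90843971) stood at 734, 682, 113 and 391.6, and was lowest in the same library, 6.45-fold below E(-)T(-). Its tumor difference was -2.69 log2 (-3.01 to -2.40) without exercise and -0.80 (-0.99 to -0.61) with it. The alternative chains Col6a4, Col6a5 and Col6a6 were low. Col6a4 had 0, 16, 0 and 11 reads, with reads in the 2 exercise libraries only. Col6a5 stood at 12.7, 21.1, 24.1 and 22.2 normalized counts, with E(-)T(-) lowest. Col6a6 had 2, 2, 7 and 6 reads, with the 2 tumor libraries above the other 2 by less than counting error allows to separate (log2 difference 1.72, -0.22 to 5.48, in resting mice).

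Of the transmembrane collagens, Col13a1 and Col23a1 were lower in E(-)T(+) than in the other libraries. Col13a1 (chr10:61838236-61979108) stood at 607, 788, 53.8 and 442 normalized counts, and E(-)T(+) was 11.1-fold below E(-)T(-), at -3.47 log2 (-3.95 to -3.08). Col23a1 stood at 778, 675, 118 and 642, 6.53-fold lower in the same comparison and within 1.06-fold in exercised mice. Col17a1, the collagen of epithelial hemidesmosomes, had only 9, 6, 3 and 3 reads. Its tumor difference in resting mice, -1.01 log2 (-3.74 to 0.78), was -0.68 with a pseudocount of 4, -0.94 with library totals alone and -0.98 with median-of-ratios size factors, all under the limit. Among the chains that associate with fibrils, Col14a1 stood at 281, 209, 51.6 and 106 and was 5.36-fold lower with tumor in resting mice. Col16a1 went the other way, at 288, 321, 1241 and 290, with the 3 libraries other than E(-)T(+) close to each other. Col19a1 had 9, 2, 4 and 2 reads. The 2 chains of type VIII, made by vessel walls, also split. Col8a1 stood at 216, 196, 1207 and 234 normalized counts, and Col8a2 at 41.7, 51.5, 7.74 and 38.6, so that E(-)T(+) was the highest library for one chain and the lowest for the other.

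Promoters of the chains that went in opposite directions were compared by sequence. RefSeq promoters on GRCm38.p6, from 250 bases before to 50 after the start, were matched by symbol for 35 of the 43 members. Shown are the 150 bases before the start of Col3a1 (chr1:45311388-45311537, plus strand) and Col6a2 (chr10:76623631-76623780, minus strand), both highest in E(-)T(+), and of Col6a3 (chr1:90843972-90844121, minus strand) and Col13a1 (chr10:61979109-61979258, minus strand), both lowest there. No annotated exon overlaps these windows. Capitals mark the motif TATAAA.
Col3a1: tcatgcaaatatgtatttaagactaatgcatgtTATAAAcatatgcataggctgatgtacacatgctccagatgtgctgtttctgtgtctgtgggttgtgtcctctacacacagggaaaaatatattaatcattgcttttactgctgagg
Col6a2: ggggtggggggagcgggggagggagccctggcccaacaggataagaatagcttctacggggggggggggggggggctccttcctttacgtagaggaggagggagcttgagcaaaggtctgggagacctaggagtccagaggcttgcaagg
Col6a3: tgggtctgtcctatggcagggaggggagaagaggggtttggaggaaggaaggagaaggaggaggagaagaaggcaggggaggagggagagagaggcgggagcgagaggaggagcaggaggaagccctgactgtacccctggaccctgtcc
Col13a1: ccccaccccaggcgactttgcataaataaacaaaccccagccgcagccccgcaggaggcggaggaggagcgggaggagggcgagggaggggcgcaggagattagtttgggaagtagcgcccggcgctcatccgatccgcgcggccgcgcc

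In Col3a1 the marked TATAAA begins 117 bases before the start. The TATA box, the CCAAT box and the GC box were searched on both strands of the full 300-base windows, and their letters do not overlap each other. TATAAA was present in 5 of the 35 members (14.3%) and in 14.2% of 27025 promoters, 1 per gene. CCAAT was present in 34.3% of members and in 38.0% of all promoters. GGGCGG, the GC box, was present in 62.9% of members and in 35.9% of all promoters. It was present in 6 of 8 fibrillar, 6 of 8 basement membrane and 10 of 19 other members, so that its presence did not separate the classes. None of the 3 motifs was found in the printed bases of Col6a2, Col6a3 or Col13a1. Outside the printed bases, the full window of Col13a1 holds the TATA box letters and that of Col6a2 the GC box letters, on either strand. The position of a match within the window was not used. Thus TATAAA was present in Col3a1, highest in E(-)T(+), and also in Col13a1, lowest there. A match to these letters is a description of the window and not evidence of a bound factor.

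Reads were also expressed as shares within a library, which need no scaling between libraries. Collagen chain genes took 0.150%, 0.152%, 0.387% and 0.140% of all assigned reads. The share in E(-)T(+) had a 95% Wilson interval of 0.383% to 0.391% and was the largest. The share in E(+)T(+) was the smallest, in the library where hemoglobin took 31.4% of the reads. Of the reads outside the hemoglobin genes, a denominator chosen after seeing the data, collagen chain genes took 0.175%, 0.177%, 0.393% and 0.205%, so that E(+)T(+) (0.202% to 0.208%) then lay above both libraries without tumor. Fibrillar chains held 31.4%, 32.4%, 68.6% and 39.2% of the collagen reads, and basement membrane chains 44.6%, 45.8%, 13.97% and 45.3%. Type I alone took 49.5% of the collagen reads in E(-)T(+), against 17.9% to 22.3% in the other libraries. In E(+)T(+) the basement membrane share was within the range of the libraries without tumor, while the fibrillar share (interval 38.5% to 39.9%) was above both of them.

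**Figure D3:**
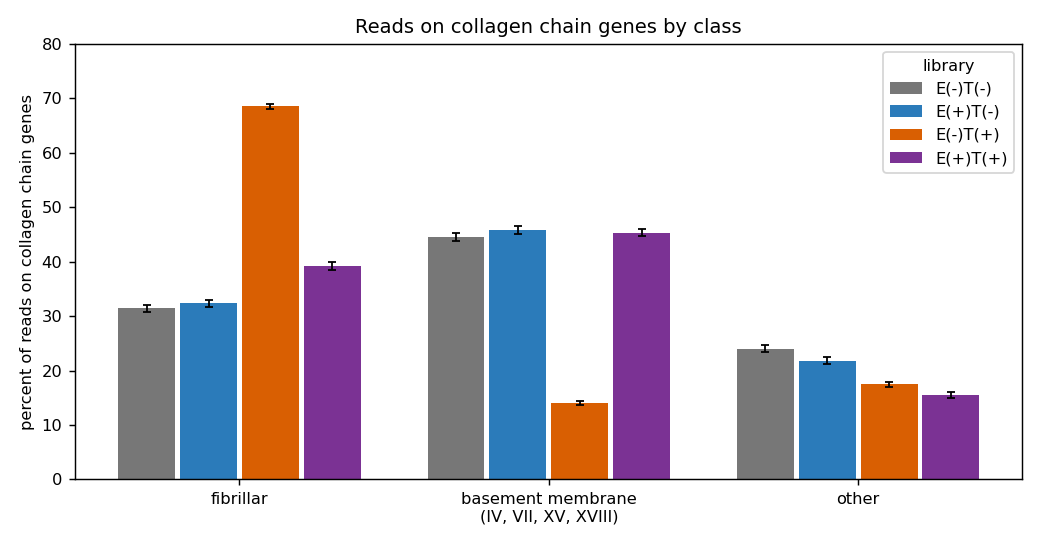
Percent of the reads on collagen chain genes (vertical axis, from 0) that fell on fibrillar, basement membrane and other chains, 1 bar per library with 95% Wilson intervals for counting error. The fibrillar bar of E(-)T(+) stands at 68.6% and those of the other libraries between 31.4% and 39.2%.

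Ratios between chains, of 1 type except for Col3a1 over Col1a2, were taken within each library, with exact intervals on the reads. The ratio of Col4a1 to Col4a2 varied least, at 0.24, 0.24, 0.44 and 0.13 log2. The ratio of Col1a2 to Col1a1, chains of 1 trimer, was 1.98, 1.99, 3.39 and 1.24 log2, so that the 2 tumor libraries lay on opposite sides of the libraries without tumor. The ratio of Col6a3 to Col6a1 was 0.74, 0.88, -4.38 and -0.67 log2, positive in the 2 libraries without tumor and negative in the 2 with tumor. Its interval in E(+)T(+), -0.88 to -0.48, did not reach those of the libraries without tumor. In 2 further pairs both tumor libraries lay above both libraries without tumor, with intervals that did not overlap. Col5a1 over Col5a2 was -0.24, -0.69, 0.72 and 0.44 log2, and Col6a1 over Col6a2 was -0.19, -0.42, 0.46 and 0.35. Col8a1 over Col8a2 was 2.37, 1.93, 7.30 and 2.60 log2, with an interval of 6.25 to 8.62 in E(-)T(+) from 7 reads of Col8a2. Its interval in E(+)T(+), 2.06 to 3.18, overlapped that of E(-)T(-), 1.93 to 2.85, and also that of E(+)T(-). In another pair of each of types IV and VI both tumor libraries lay below both libraries without tumor, again with intervals that did not overlap. Col4a5 over Col4a1 was -4.55, -4.46, -5.40 and -6.74 log2, and Col6a3 over Col6a2 was 0.56, 0.47, -3.92 and -0.33. Col3a1 over Col1a2 was -1.01, -0.52, -1.46 and -0.35. The ratio of Col4a4 to Col4a3 was 2.54, 2.37, 0.64 and 2.94 log2, with E(-)T(+) as the low library.

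**Figure D4:**
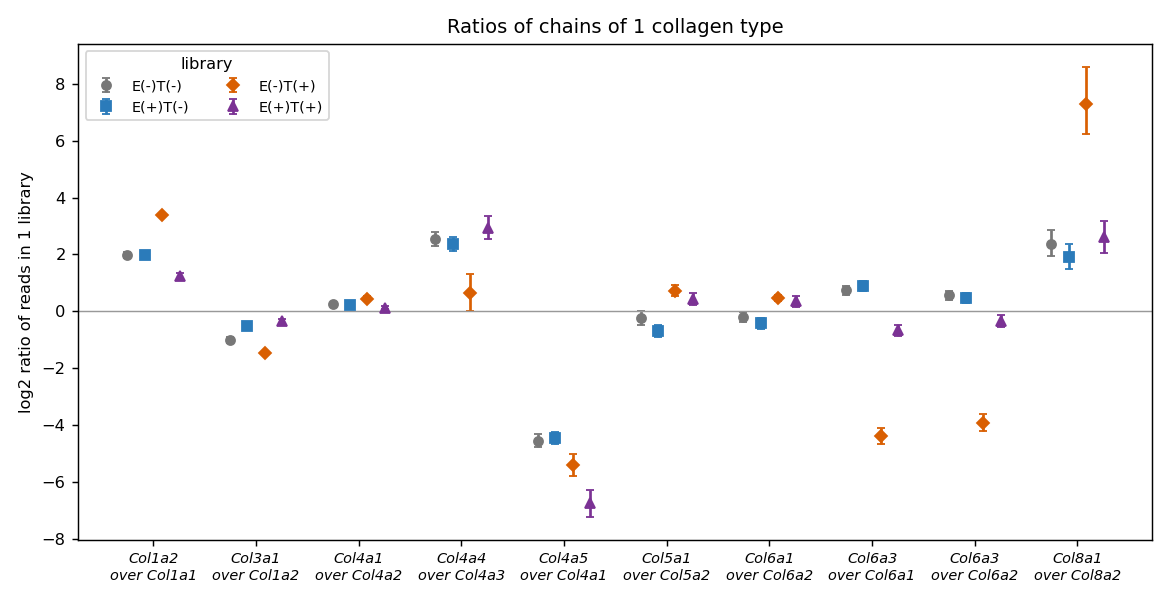
Log2 ratio of the reads of 2 collagen chains within 1 library (vertical axis) for 10 pairs of chains, 1 point per library with 95% exact intervals for counting error. For Col6a3 over Col6a1 the 2 libraries without tumor lie above 0 and the 2 with tumor below it, and the type IV pair Col4a1 over Col4a2 varies least.

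Exercise in mice without tumor, E(+)T(-) over E(-)T(-), separated few members. Of the 34, 1 was higher and 3 were lower, against 5.28% higher and 4.7% lower among all genes, and the median was 0.098 log2. None of the 18 members with a mean of at least 100 normalized counts differed by 2-fold. Among these, Col5a2 had the largest difference, 0.56 log2 (0.36 to 0.77), followed by Col3a1 at 0.44 (0.35 to 0.54). The 4 members past the limit were all low. Col6a4, from 0 to 16 reads, was 5.77-fold higher with the first library set at 3 reads, and its exact interval began at 2.06 log2. Col11a1, from 7 to 0 reads, was 2.16-fold lower with the second library set at 3 reads, and its exact interval reached up to -0.415 log2. Col19a1 went from 9 to 2 reads (log2 interval -5.31 to 0.21), and Col28a1, from 3 to 0 reads, was at the floor of 3 reads in both libraries.

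Exercise in mice with tumor, E(+)T(+) over E(-)T(+), separated most members, and E(-)T(+) is the library that stood apart. Of the 34 members, 14 were higher and 8 lower, against 24.3% higher and 17.7% lower among all genes. Scaling by library totals alone put the median of all genes at -0.60 log2 in this comparison, gave 11 higher and 10 lower members, and moved the median of the 34 from 0.37 to -0.16. The fibrillar members counted 1 higher and 3 lower, with Col1a2 at -2.39 log2 (-2.44 to -2.33) and Col3a1 at -1.28 (-1.35 to -1.21). Col1a1 was at -0.24 (-0.35 to -0.13) and Col5a1 at -0.21 (-0.39 to -0.024), but at -0.85 and -0.81 with totals alone, where the fibrillar median went from -0.22 to -0.83. The basement membrane members counted 4 higher and 1 lower, with a median of 1.02 log2, but 2 higher and 2 lower with totals alone, with a median of 0.42. Col4a4 was 8.98-fold higher, Col4a2 was 2.25-fold higher and Col18a1 was 2.76-fold lower. With totals alone Col4a2, at 0.56 log2, and Col15a1, at 0.71, were under the limit, and Col4a5, at -1.06, was past it.

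The other classes counted 9 higher and 4 lower with exercise in mice with tumor. Those lower were Col6a1, Col6a2, Col16a1 and Col8a1, between 3.47-fold and 5.14-fold. Those higher included Col13a1 at 8.09-fold, Col23a1 at 5.38-fold, Col6a3 at 3.45-fold and Col14a1 at 2.05-fold, the last at 0.43 log2 with totals alone and 0.95 with totals that leave out hemoglobin. Each of these 8 genes had stood on the opposite side in E(-)T(+) over E(-)T(-), and the 2 comparisons share the E(-)T(+) library. The low members Col28a1, Col10a1 and Col2a1 were highest in E(+)T(+). Col28a1, a collagen of peripheral nerve, had 3, 0, 1 and 17 reads. Col10a1, the collagen of hypertrophic cartilage, had 0, 0, 2 and 16 reads. In exercised mice the tumor library was 7.21-fold higher for Col28a1 and 6.79-fold higher for Col10a1, with E(+)T(-) set at 3 reads. The lower limits of their exact intervals, from the recovered reads, were 2.39 and 2.295 log2. Col2a1, the cartilage fibril chain, had 0, 0, 0 and 7 reads and was under the filter. Of 6 cartilage marker rows, 5, 3, 3 and 2 were at 0, Matn1 was at 0 in all 4 libraries, and their summed level was 39.9, 26.6, 155 and 35.1 normalized counts. Sox9, which is not particular to cartilage, made up most of it in each library, with 47, 25, 137 and 25 recovered reads in the same order. The summed level of the 5 skeletal muscle markers was also highest in E(+)T(+), at 128, 47.6, 82.3 and 228, and it was lowest in E(+)T(-). Of the 4 that passed the filter, 3 were higher than in E(+)T(-), against 14.9% of all genes (Acta1 at 3.63 log2, Tnnt3 at 2.33 and Ckm at 1.85). Ckm was highest in E(-)T(-), at 53.7 normalized counts against 42.0 in E(+)T(+). Myh4 had 1 read in each tumor library and 0 in both libraries without tumor. The part of other tissue in these low members was not tested. Col10a1 overlaps Nt5dc1 on the opposite strand at its 3′ end.

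The remaining members past the limit in E(+)T(+) over E(+)T(-) were Col7a1, Col20a1 and Col6a6, each with at most 17 reads in any library. The intervals of Col7a1 (-0.057 to 2.90) and Col6a6 (-0.55 to 5.27) include 0. With a pseudocount of 4 all of them were under the limit, at 0.96, 0.95 and 0.92 log2, and with totals alone Col7a1 and Col20a1 were, at 0.84 and 0.78. Scaling by totals alone gave 3 higher and 6 lower members in place of 6 and 2, with Col6a3 at -1.21 log2, Col13a1 at -1.24, Col12a1 at -1.22 and Col14a1 at -1.37 past the limit, and put the median of all genes at -0.41. Members not described above passed the filter at low means. Col15a1 had 80, 56, 33 and 78 reads, Col12a1 had 75, 48, 14 and 21, and Col7a1 and Col20a1 had 4 to 17. The 9 members under the filter had at most 9 reads in any library. Apart from Col2a1 and Col4a6, with 9, 1, 3 and 0 reads, these were Col24a1, Col11a2, Col9a1, Col9a2, Col9a3, Col25a1 and Col26a1, with 0 to 5 reads.

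An additive fit of exercise and tumor over the 4 libraries, by limma on all 15164 genes with Benjamini-Hochberg adjustment, has only the interaction as its spread, with 1 residual degree of freedom per gene. The SEs and p-values therefore rest mainly on a variance that limma shares over all genes of a like level, not on the spread of each gene. The exercise term called 0% of all genes and 0 members. Without adjustment, 753 genes and 6 members had an exercise p under 0.05. With adjustment it called 58 of 18254 genes without the filter, 5 with a pseudocount of 4 and 7 with library totals alone, and 0 members in each. The tumor term called 3.26% of all genes and 0 members, but this depended on the settings. It called 5 members without the filter, 4 with a pseudocount of 4 and 2 with library totals alone. At a mean of at least 50 normalized counts it called 5 of 11216 genes and 0 members. Before adjustment and at the main settings, 2702 of the 15164 genes and 13 of the 34 members had a tumor p under 0.05. The members nearest the threshold were Col13a1 (coefficient -2.15 log2, SE 0.58, limma adjusted p = 0.0569), Col4a4 (-2.08, SE 0.61, adjusted p = 0.0735) and Col6a3 (-1.74, SE 0.52, adjusted p = 0.080). Among the fibrillar chains the smallest adjusted p was 0.125, for Col1a1 (coefficient 1.27, SE 0.43).

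Genes that act on collagen were described from fixed lists. Of the 67 genes of the 5 lists that passed the filter, 32.8% were higher and 34.3% lower with tumor in resting mice, against 20.6% and 25.7% of all genes, and 16.4% and 22.4% in exercised mice, against 14.9% and 13%. Of 18 genes of collagen folding and modification, 7 were higher and 3 lower with tumor in resting mice, with a median of 0.36 log2. P4hb, a subunit of prolyl 4-hydroxylase, stood at 2474, 2399, 5223 and 3179 normalized counts. Serpinh1, the collagen chaperone HSP47, stood at 1393, 2524, 2869 and 767, so that E(+)T(+) was its lowest library. Ppib, a prolyl isomerase, differed by less than 2-fold in all 4 comparisons. Fkbp10, another isomerase, stood at 73.8, 67.0, 717 and 167, and P4ha3, a catalytic subunit of prolyl 4-hydroxylase, at 11.8, 27.5, 129 and 38.6. Both were highest in E(-)T(+), as Col1a2 and Col3a1 were, whereas the collagen galactosyltransferase Colgalt2 was lowest there, at 197, 214, 13.2 and 76.1.

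Of 12 genes of propeptide cleavage and cross-linking that passed the filter, 5 were higher and 3 lower with tumor in resting mice, against 20.6% and 25.7% of all genes. Pcolce, an enhancer of C-propeptide cleavage, stood at 763, 844, 2830 and 903 normalized counts. Its paralog Pcolce2 stood at 4604, 3625, 102 and 1269, with E(-)T(+) lowest. Lox, lysyl oxidase, was highest in E(+)T(+), at 268, 380, 489 and 1789. Among 10 fibril-associated proteins, 3 were higher and 5 lower, against the same 20.6% and 25.7%. The largest difference was that of Thbs2, a matricellular protein that affects fibril assembly, at 12.6, 50.4, 2087 and 156. Ogn and Prelp, small proteoglycans, were lowest in E(-)T(+), at 277 and 59.3 against 2604 and 1161 in E(-)T(-). Sparc, which binds fibrillar collagen, differed by less than 2-fold in all 4 comparisons, and Bgn, a proteoglycan of collagen fibrils, was lower in E(-)T(+) than in E(-)T(-) at a log2 difference of -1.56.

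Of 15 basement membrane partners, 4 were higher and 9 lower with tumor in resting mice, against 20.6% and 25.7% of all genes. Those higher were the laminin chains Lamb1 and Lamc1, nidogen Nid1 and perlecan Hspg2, between 1.52 and 1.72 log2. Lamb2 and agrin (Agrn) were lower, at -1.42 and -2.25. None was higher and 2 were lower with tumor in exercised mice, against 14.9% and 13% of all genes. Of 12 genes of collagen binding and breakdown, 3 were higher and 3 lower in resting mice, against the same 20.6% and 25.7%. The list holds receptors and the proteases Fap and Ctsk, and Fap was 1 of the 3 higher, at 3.21 log2. The tyrosine kinase receptors went in opposite directions, Ddr1 at 569, 535, 206 and 472 normalized counts and Ddr2 at 1146, 1755, 2677 and 927. So did the integrin chains Itga1, at 331, 458, 24.2 and 109, and Itga10, at 12.6, 24.7, 345 and 22.3, while their partner Itgb1 stayed within 2-fold. With exercise in mice without tumor, 4 of the 67 genes of these 5 lists that passed the filter were higher and 4 lower (5.97% each), against 5.28% and 4.7% of all genes.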

How the data were processed

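Lung RNA of the 4 groups was sequenced from transcript 3′ ends with the QuantSeq kit. The authors used Bowtie2 for alignment, bedtools for the count of each gene and the quantile method of edgeR for normalization. The submitters' processing notes name the build mm10. Versions, annotation and strand use are not given in the sources used here. The deposited log2 values are log2(normalized count + 1) at 3 decimals. Whole reads were recovered from them by inverting the negative binomial quantile adjustment in Python 3.11.15 with scipy 1.17.1, with a dispersion of 0.372. All values (100%) came out within 0.001. Totals were 13017471, 12780419, 9354490 and 13367882 reads.

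Differences of deposited values were called at 2-fold, with a mean of at least 4 normalized counts. Read ratios carry 95% exact (Clopper-Pearson) intervals and shares 95% Wilson intervals. PCR copies are not independent molecules, so both cover counting error only. The additive fit used limma 3.58.1 (R 4.3.3) with Benjamini-Hochberg adjustment over 15164 genes. The scripts were tested on simulated data. Coordinates are from GENCODE M21 on GRCm38, the same assembly as mm10.

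The members and lists were chosen with earlier results of these data known. Named in full are members with a mean of at least 100, the 3 largest rises and falls of each comparison, and Col1a1, Col3a1 and Col5a2. Other members are named where a count includes them. Of the other lists, the 3 genes with the highest means and those past 8-fold at a mean of at least 50 are named, with a few others picked after their values were seen. Alternatives were the filter, the pseudocount, the fold limit, the scaling, the class definition and removal from E(+)T(-) of 1.47% of the E(-)T(+) level.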

Additional observations from a re-analysis of the deposited data

Results flagged for a closer look

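Col28a1 was flagged because its exercise effects with and without tumor lay past the limit on opposite sides. It went from 1 read in E(-)T(+) to 17 in E(+)T(+), a log2 difference of 3.25 (95% exact interval 1.51 to 9.57). Without tumor it went from 3 reads in E(-)T(-) to 0 in E(+)T(-), a log2 difference of -1.80 with both libraries at or under the floor of 3 reads. With both of those libraries set at the floor the effect without tumor was 0.0, so its side is not established. The 5.045 log2 between the 2 effects therefore rests partly on values not above the floor, and it was not tested. With a pseudocount of 4 the effect without tumor was -0.69, under the limit.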

How the results depend on the processing

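No paired analysis was possible because each group had 1 library. For the same reason no replicate could be left out. Without a filter on low values, 7 members in place of 4 passed the limit for exercise without tumor, 13 in place of 8 for tumor with exercise, and the additive fit by limma called 5 members for tumor in place of 0, while its calls over all genes went from 495 of 15164 to 1284 of 18254 (Col4a4, Col6a3 and Col13a1 lower, Col6a1 and Col18a1 higher, adjusted p 0.000964 to 0.0326). With a mean of at least 50 normalized counts, these comparisons gave 0 and 3 members, the latter 1 higher and 2 lower in place of 6 and 2. The tumor term of the additive fit then called 5 of 11216 genes in place of 495 of 15164, and 0 members. A pseudocount of 4 gave 5 members for tumor with exercise and 4 in the additive fit, 3 lower and 1 higher, with 884 genes called in all. A fold limit of 1.5 gave 18 members for tumor with exercise. Scaling by library totals alone moved the members' median from 0.37 to -0.163 for exercise with tumor and from 0.081 to -0.239 for tumor with exercise, and gave 2 members, Col4a4 and Col13a1, in the additive fit in place of 0, with 827 genes called in all. With type IV as the whole basement membrane class, its median moved from -0.74 to -1.222 for tumor without exercise and from 0.38 to -0.567 for tumor with exercise. The cause of these changes was not tested. Of 136 differences of single members, 121 stayed on their side of the limit with totals alone, 129 with a pseudocount of 4, and 134 to 136 under the other scalings, a pseudocount of 0.5 and the removal of the E(-)T(+) share from E(+)T(-). Members with few reads are limited by depth, since the floor of 3 reads equals 2.55 to 3.51 normalized counts.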
